A study of Mus musculus with 10 samples.

Results

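The cell cycle and DNA replication genes are the rows of the expression table whose gene names begin with those of cyclins A, B, D and E, cyclin-dependent kinases and their inhibitors, Cdc proteins without the Cdc42 names, Mcm, Orc and Gins proteins, Cenp, Aurk, Bub and Plk proteins, or are Mki67, Top2a, Pcna, Rrm1, Rrm2 and Tyms. The rule uses gene names only, but it was chosen with earlier results of these data known. Of the 12160 listed genes, 108 met the rule. Expression was measured by low-input RNA sequencing (Smart-Seq2, which copies polyadenylated RNA into cDNA and amplifies it) in 10 libraries of 100 sorted pancreatic cells each, 5 from tuft cells and 5 from non-tuft epithelium. The cells came from male wild type mice with pancreatitis induced by caerulein, a secretagogue that injures acinar cells when given repeatedly. The protocol text gives the strain as CD1 and the strain field says Mixed. Both cell populations were sorted as Cd45-neg; EpCAM+, which leaves out blood cells and keeps epithelium, and Siglec F separated tuft cells (positive) from the rest of the epithelium (negative). By the study's methods both populations were taken from 5 mice, and every tuft cell library came from a single mouse, so tuft and non-tuft libraries share animals. The labels do not tie a tuft library to the non-tuft library of its mouse, and the tests treat the 10 libraries as independent. No uninjured or untreated pancreas entered the comparison.

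Cells divide by running through a fixed order of phases. D cyclins with Cdk4 and Cdk6 carry the cell through the first gap phase, cyclins E and A with Cdk2 drive the replication of DNA by the Mcm helicase, and B cyclins with Cdk1 drive mitosis, while inhibitors of the Cip/Kip and Ink4 families hold these kinases in check. The resting exocrine pancreas divides little, and epithelial cells of the injured pancreas re-enter the cycle. Tuft cells are chemosensory epithelial cells that are absent from the normal mouse pancreas and are generally regarded as a differentiated cell type.

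Values are given as the level, log2(RPKM + 1) after quantile normalization (RPKM scales the reads of a gene by its length and by the library total), so levels can be set side by side between genes. A gene at the lowest value of a library is called at the floor, which was 0 in 9 libraries and 0.17 in non-tuft library 2. The number of reads behind each value is unknown, so no counting interval can be given and a gene at the floor is only listed at 0. Differences are tuft minus non-tuft means on the same log2 scale, tested with limma across all listed genes, and a fold is 2 to the power of that difference. Where a whole group is at the floor, the fitted difference depends on the constant of 1 that was added before the logarithm, and no fold is given. With most of a group at the floor, as for Ccna2 and Cdc20, the fold that is given depends on that constant as well. Because each library pools cells, fewer cells of a cycling type and less RNA per cell cannot be told apart.

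Non-tuft library 2 had the fewest genes above the floor, 8407 of 12160, against 9396 to 10718 in the other 9 libraries. All 10 tuft markers that were examined, Siglecf of the sort among them, were higher in tuft cells, and their mean level was 7.02 to 7.54 in tuft libraries and 0.04 to 3.90 in non-tuft libraries, with 8 or 9 of 10 above the floor in non-tuft libraries 1, 2 and 5. Acinar markers were present in every library, with mean levels of 5.30 to 10.9 in tuft and 11.9 to 13 in non-tuft libraries, and 5 of 8 passed as lower in tuft cells. Markers of fibroblasts, all 6 above the floor, and of T, B and NK cells, all 4 listed ones, stood out in both libraries numbered 5, where the fibroblast means were 6.42 in non-tuft and 4.63 in tuft cells against at most 0.66 elsewhere. Myeloid markers were highest in tuft library 3, where all 4 were above the floor with a mean of 3.30, against 0.31 to 1.52 in the other tuft libraries and 1.20 to 2.73 in non-tuft libraries. Tuft library 3 was also the highest tuft library for Ccna2, Plk4 and Rrm2, but Mki67, Top2a, Cdc20 and Mcm3 were each highest in another tuft library. Ductal markers had mean levels of 3.32 to 4.91 in tuft and 4.82 to 6.35 in non-tuft libraries, and 1 of 6 passed as lower. Islet markers were at mean levels of 0.09 to 1.59 in tuft and 0.35 to 8.70 in non-tuft libraries, and 2 of 7 passed as lower. Their mean was highest in non-tuft library 1, at 8.70, followed by non-tuft library 5 at 5.91, and lowest of the non-tuft cells in library 4. The part of these other cells in the results was not tested, and counts without both libraries numbered 5 are given. Eosinophil markers, for a cell type that also carries Siglec F, and red cell markers were not listed.

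Transcription of many cycle genes runs through short promoter elements. The CHR element with CCAAT boxes is known from genes expressed in the second gap phase and mitosis, and E2F sites from genes of replication. In the RefSeq promoters of the GRCm38.p6 assembly, which span 250 bases before to 50 bases after the start, 92 of the 108 members were found. Letters were searched on both strands, TTTGAA for the core of the CHR element, TTTCCCGC or TTTGGCGC for E2F, and CCAAT. Of the 10 mitotic kinase and checkpoint members with a promoter, 7 held both TTTGAA and CCAAT (Cdc20, Mki67, Top2a, Plk1, Bub1b, Aurka and Bub3), against 5.67% of the 9112 listed genes with a promoter and 7.97% of all 27025 genes of the table. E2F letters stood in 4 of 5 Mcm helicase promoters (Mcm3, Mcm5, Mcm6 and Mcm7), against 3.40% of listed genes and 1.80% of all. TTTGAA was found in 14% and CCAAT in 42.6% of listed genes, each counted with or without the other letters. The promoters of Ccna2, Ccnd1, Ccnd2, Aurkb, Cdkn1c, Mcm4 and Gins1 were not in the table.

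The 160 bases just before the start are shown for 3 mitotic genes with TTTGAA that were lower in tuft cells. Also shown are a pair of Mcm genes with E2F letters, of which Mcm5 passed the test and Mcm6 did not. The last is the inhibitor Cdkn2c, which was higher. They are written 5′ to 3′ along the gene's strand, and capitals mark the searched letters on either strand, with ATTGG and GCGCCAAA being CCAAT and TTTGGCGC on the other strand. No printed matches overlapped one another.
Cdk1 (chr10:69352913-69353072, minus strand): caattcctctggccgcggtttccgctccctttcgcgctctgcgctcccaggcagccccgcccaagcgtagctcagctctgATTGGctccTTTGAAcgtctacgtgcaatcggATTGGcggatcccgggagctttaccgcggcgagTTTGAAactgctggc
Cdc20 (chr4:118437344-118437503, minus strand): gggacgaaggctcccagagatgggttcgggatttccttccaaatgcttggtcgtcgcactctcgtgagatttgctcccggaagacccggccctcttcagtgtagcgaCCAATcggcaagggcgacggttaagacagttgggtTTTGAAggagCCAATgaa
Mki67 (chr7:135716380-135716539, minus strand): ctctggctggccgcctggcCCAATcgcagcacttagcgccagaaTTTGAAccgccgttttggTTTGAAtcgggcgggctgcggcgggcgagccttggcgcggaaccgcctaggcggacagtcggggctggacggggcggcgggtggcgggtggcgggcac
Mcm5 (chr8:75109349-75109508, plus strand): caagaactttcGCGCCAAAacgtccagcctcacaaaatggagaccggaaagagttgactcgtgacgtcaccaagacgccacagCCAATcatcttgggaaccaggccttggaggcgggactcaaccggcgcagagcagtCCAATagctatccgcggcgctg
Mcm6 (chr1:128359706-128359865, minus strand): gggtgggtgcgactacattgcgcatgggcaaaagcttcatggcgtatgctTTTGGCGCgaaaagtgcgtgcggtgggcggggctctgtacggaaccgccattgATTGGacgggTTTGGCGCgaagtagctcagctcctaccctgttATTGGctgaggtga
Cdkn2c (chr4:109666757-109666916, minus strand): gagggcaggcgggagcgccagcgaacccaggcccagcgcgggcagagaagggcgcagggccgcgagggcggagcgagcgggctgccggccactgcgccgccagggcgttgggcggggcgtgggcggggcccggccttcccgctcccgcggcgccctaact

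The TTTGAA letters began at positions -71 and -15 from the start in Cdk1, -18 in Cdc20, and -116 and -98 in Mki67. The promoter of Ccnb1, a mitotic gene also lower in tuft cells and not printed, held CCAAT but no TTTGAA. In Cdkn2c, for which the table holds 2 starts, the printed run held none of the searched letters, although CCAAT was found elsewhere in its promoters. Of the members that were lower in tuft cells and had a promoter, 5 of 10 held both TTTGAA and CCAAT (Ccnb2, Cdk1, Cdkn3, Cdc20 and Mki67), as did 10 of the 79 that did not pass and Bub3, which was higher. A match of letters is a description of the sequence only, and no binding was measured.

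At an adjusted p under 0.05 (limma), 14 of the 108 members were lower in tuft cells and 3 were higher, against 5.55% and 6.19% of all listed genes. This split changed with the scaling and with a filter on low values. With each library centred on its ribosomal protein genes, 8 were lower and 10 higher, against 2.41% and 18.4% of all listed genes. Among the 57 members with a mean level of at least 2 over all 10 libraries, 5 were lower and 4 higher. Of the 7270 genes then tested, 7.14% were lower and 8.90% higher. The filter left out members that had passed, among them Cdc20, Mki67, Plk4 and Aurkb. At an unadjusted p under 0.05 there were 24 lower and 8 higher members, against 25.1% of all listed genes in either direction. With a fold over 4 as well, 16 members were called, 13 lower and 3 higher (14.8% of the members), and the background was 8.31% of all listed genes, 3.99% lower and 4.32% higher. The median difference over all members was -0.28, against 0.02 over all listed genes. In 10 members every tuft library lay below every non-tuft library (background 4.84%) and in 3 every tuft library lay above (background 6.32%). At the floor in all 5 tuft libraries were 12 members, against 4.60% of listed genes, and 2 were so in all non-tuft libraries, against 2.93%. Genes that varied little had been dropped by the authors, so such a gene was listed only through its values in the other group.

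Of the 66 members in 10 core roles (cyclins, Cdk1, Cdk2, Cdk4 and Cdk6, their inhibitors, replication, centromere and mitosis), 13 were lower and 3 higher at an adjusted p under 0.05, with a median difference of -0.82. Of the other 42 members, 1 was lower and none was higher in limma's test, and 2 were lower and 2 higher at an unadjusted p under 0.05. The median difference of these 42 was 0.01. They hold kinases of transcription and Cdc names with other functions, but also Cdkn3, the lower one, and subunits of the anaphase-promoting complex. The roles were set with earlier results of these data known, so this split is a description and not independent support. Quantile normalization fixes the overall distribution of each library, and ribosomal protein centring moved the median of all genes to 0.82 and the median of the members to 0.52. Under that scaling 8 members were called lower and 7 higher, in place of 13 and 3, and 1514 of the 12160 listed genes were called, 225 lower and 1289 higher. Ccnb1, Mcm3, Mcm5, Mki67, Plk4 and Aurkb then lost significance with an adjusted p of 0.0553 to 0.154, and the gains among named members were Cdk2, Cdkn2d, Cdk19 and Cdc14b, all higher. The median difference of the cyclins and cell cycle kinases was then -1.26 and that of the CDK inhibitors 1.64.

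**Figure D1:**
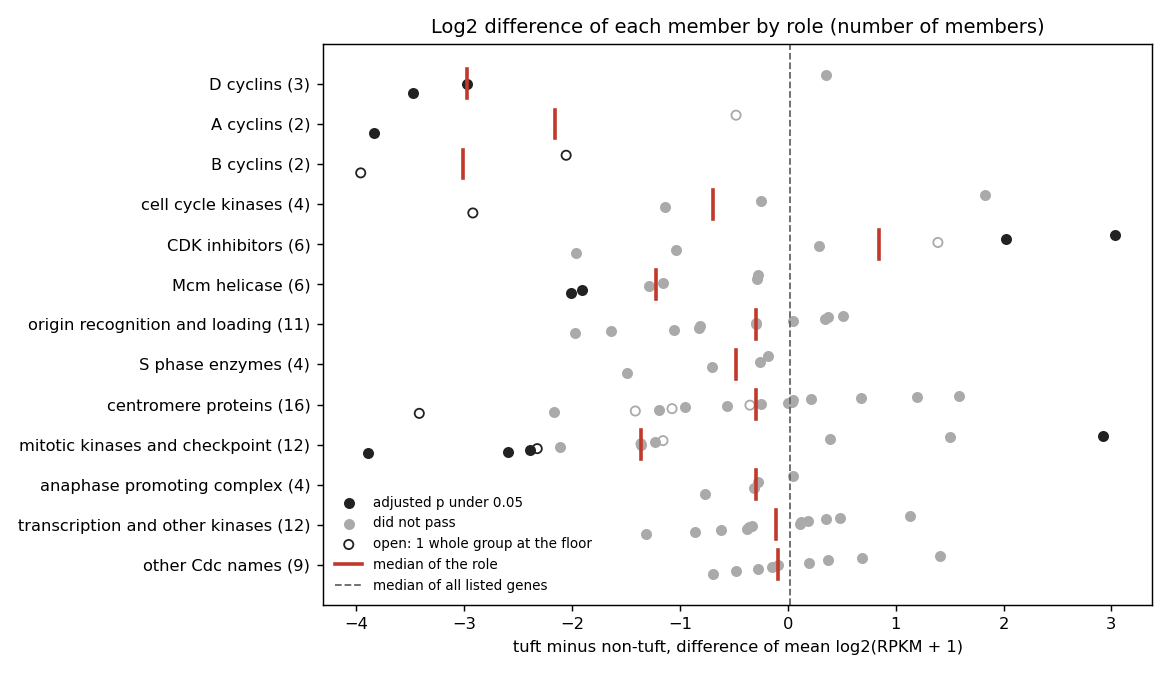
Each point is 1 member of the roles drawn (smaller groups of other names, among them that of Cdkn3, are left out), placed by its difference (tuft minus non-tuft mean, log2(RPKM + 1)) and grouped in rows by role with the number of members; dark points passed an adjusted p under 0.05, open points have a whole group at the floor, red bars are medians of the role and the dashed line is the median of all listed genes, 0.02. The cyclins lie mostly left of the line, CDK inhibitors on both sides, and transcription and other kinases around it.

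Of the 3 D cyclins, which bind Cdk4 and Cdk6 in response to growth signals, Ccnd1 and Ccnd2 fell and Ccnd3 did not pass. Ccnd1 (mm9, chromosome 7, 152115836 to 152125774) was at 5.63, 4.38, 3.39, 6.29 and 3.91 in non-tuft libraries 1 to 5, and at 0.87, 1.01, 0.62, 2.51 and 1.20 in tuft libraries 1 to 5. Every tuft library lay below every non-tuft library, with tuft library 4 the highest of the tuft cells. Its mean was 4.72 ± 1.21 (SD, n = 5) in non-tuft and 1.24 ± 0.74 (SD, n = 5) in tuft cells, a difference of -3.48 (SE 0.59, limma adjusted p = 0.00205) or an 11.1-fold lower level. An exon of Ccnd1 overlaps Oraov1, and the counting is not stated to use strand, so reads from both genes may be mixed.

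Ccnd2 was at 5.01, 4.02, 3.80, 3.17 and 4.34 in the non-tuft libraries and at 1.83, 1.29, 0, 2.04 and 0.31 in the tuft libraries. The groups did not overlap, and the difference was -2.97 (SE 0.51, limma adjusted p = 0.00212), 7.86-fold. Ccnd3 was at 2.98 to 5.25 in non-tuft and 3.98 to 4.70 in tuft libraries. The groups overlapped throughout, and the difference of 0.35 had a 95% interval of -0.69 to 1.40 (limma adjusted p = 0.696). Ccnd3 was the most abundant D cyclin in every tuft library, at 3.98 or more against at most 2.51 for the other D cyclins, whereas Ccnd1 stood above it in non-tuft libraries 1 to 4. An exon of Ccnd3 overlaps an exon of Bysl.

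Of the listed cyclins of later phases, Ccna2, Ccnb1 and Ccnb2 fell. Ccna2, the cyclin of DNA synthesis and the second gap phase, was at 3.91, 3.33, 4.52, 4.20 and 4.05 in non-tuft libraries and at 0, 0, 0.80, 0 and 0.03 in tuft libraries. Its difference of -3.84 (SE 0.38, limma adjusted p = 3.83e-05), 14.3-fold, came with no overlap, and 3 tuft libraries were at the floor. Part of Ccna2 overlaps an exon of Exosc9. Ccna1, a cyclin best known from the testis, was above the floor only in non-tuft library 3, at 2.23 (limma adjusted p = 0.573).

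Both B cyclins, which activate Cdk1 in mitosis, were listed at 0 in all 5 tuft libraries. Ccnb2 was at 3.0, 3.32, 5.23, 4.17 and 4.08 in the non-tuft libraries (mean 3.96 ± 0.87 SD, n = 5; limma adjusted p = 9.63e-05). Ccnb1 was at 0, 2.52, 1.36, 3.41 and 2.99 there, so that non-tuft library 1 could not be told from the tuft libraries (limma adjusted p = 0.0353). Leaving out single libraries ended the call of Ccnb1 in 8 of 10 cases, all but non-tuft libraries 1 and 3, with an adjusted p of up to 0.0809. E cyclins were not listed.

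Of the kinases, Cdk1, the partner of B cyclins, was listed at 0 in every tuft library. It was at 3.64, 3.69, 3.49, 0 and 3.78 in the non-tuft libraries, with non-tuft library 4 at 0 although Ccnb1 and Ccnb2 stood at 3.41 and 4.17 there (limma adjusted p = 0.0105). Without both libraries numbered 5 the adjusted p of Cdk1 was 0.0738. Cdk4, which D cyclins activate, remained among the most abundant members, at 6.26 to 7.51 in non-tuft and 4.97 to 6.76 in tuft libraries. Its difference of -1.14 (95% interval -2.11 to -0.17) did not pass (limma adjusted p = 0.132), and its exons overlap Tspan31. Cdk2, the partner of cyclins E and A, was at 1.88, 0.17, 3.51, 3.71 and 2.15 in non-tuft and at 3.25, 3.67, 5.25, 4.99 and 3.40 in tuft libraries. The ranges of Cdk2 overlapped, with non-tuft library 2 at its floor (difference 1.83, limma adjusted p = 0.107). Cdk6 was low in both groups, at 0 to 2.77 and 0 to 2.52, with a difference of -0.25 (95% interval -1.61 to 1.12).

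**Figure D2:**
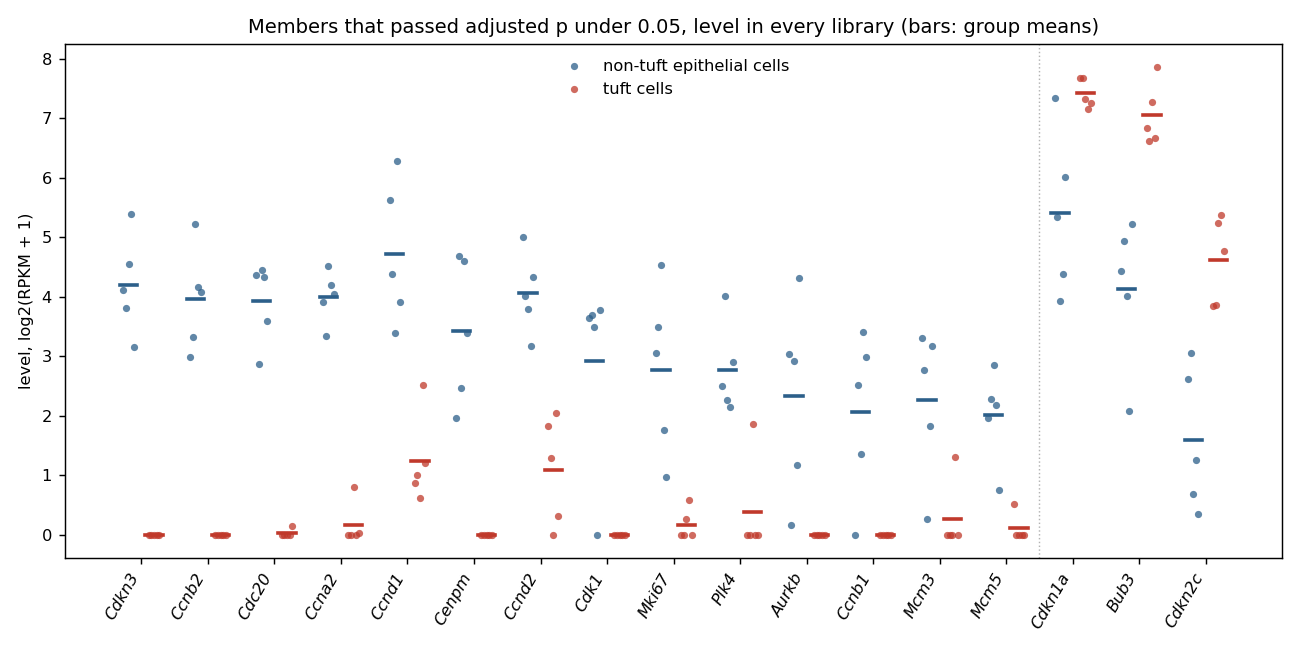
Level (log2(RPKM + 1)) of the 17 members with an adjusted p under 0.05 in each of the 5 non-tuft (blue) and 5 tuft (red) libraries, with bars at the group means, ordered by the difference and with the 3 higher members right of the dotted line. Tuft libraries sit at 0.80 or below for Cdkn3, Ccnb2, Cdc20 and Ccna2, and at 7.16 to 7.68 for Cdkn1a.

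Of 6 listed inhibitors of the Cip/Kip and Ink4 families, 2 were higher in tuft cells and none was lower by limma, with 3 higher and 1 lower at an unadjusted p under 0.05. Cdkn2c, an Ink4 inhibitor of Cdk4 and Cdk6, was at 2.61, 3.06, 0.68, 1.26 and 0.34 in non-tuft libraries and at 3.85, 3.86, 5.24, 5.38 and 4.78 in tuft libraries. The groups did not overlap, and the difference was 3.03 (SE 0.59, limma adjusted p = 0.00434), 8.17-fold. Cdkn1a, a Cip/Kip inhibitor that the p53 pathway induces, was the most abundant of the 6 in every tuft library, at 7.68, 7.68, 7.33, 7.16 and 7.26. In non-tuft cells Cdkn1a was spread widely, at 7.35, 5.34, 3.94, 4.38 and 6.01, so non-tuft library 1 lay within the tuft range. Its difference of 2.02 (SE 0.58, limma adjusted p = 0.0379), 4.05-fold, stood close to both thresholds, and 8 of 10 fits without a library, all but those without non-tuft library 1 or 5, gave an adjusted p above 0.05, up to 0.0890. Without both libraries numbered 5 it was 0.0918.

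The other inhibitors did not pass. Cdkn2d, an Ink4 inhibitor, stayed at the floor in non-tuft cells and was at 2.18, 0, 2.57, 1.25 and 1.13 in tuft libraries (limma adjusted p = 0.0803). Cdkn1b, a Cip/Kip inhibitor, was at 1.85 to 3.93 in non-tuft and 2.57 to 4.0 in tuft libraries, with a difference of 0.29 and a 95% interval of -0.72 to 1.30. Cdkn1c, of the same family and subject to imprinting, lay the other way, at 3.59, 4.10, 3.17, 1.79 and 5.23 in non-tuft and 2.43, 1.48, 0.33, 2.93 and 0.89 in tuft libraries (difference -1.96, limma adjusted p = 0.0757). Cdkn2b was above the floor in 3 non-tuft libraries and in tuft library 5, where it was at 2.39 (limma adjusted p = 0.398). Cdkn2a was not listed.

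Set side by side, 6 of the 11 cyclins and cell cycle kinases were lower and none higher in limma's test, with 7 lower and 1 higher at an unadjusted p under 0.05, and their median difference was -2.06. The 6 inhibitors had a median difference of 0.84, with 2 higher and none lower. Leaving out genes with a whole group at the floor, the medians were -1.14 over 7 cyclins and kinases and 0.29 over 5 inhibitors. The mean level of the 11 cyclins and kinases was 1.36 to 2.07 in tuft libraries and 2.90 to 3.66 in non-tuft libraries, without overlap. The mean level of the 6 inhibitors was 2.78 to 3.36 in tuft and 2.11 to 2.91 in non-tuft libraries, and these ranges overlapped. In every tuft library the inhibitor mean was above that of the cyclins and kinases, and in every non-tuft library it was below. These means are descriptions over few genes of unlike abundance, and Cdk4 and Cdkn1a are the most abundant genes in them.

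Cdkn3 carries an inhibitor's name but is a phosphatase that acts on Cdk1 and Cdk2, and it lay with the cyclins. It was at 4.11, 3.81, 4.55, 5.39 and 3.16 in non-tuft libraries and listed at 0 in all tuft libraries (limma adjusted p = 5.45e-05). No other member had a lower fitted difference.

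Among the genes of DNA replication, Mcm3 and Mcm5 fell. All 6 subunits of the Mcm helicase, which unwinds DNA at the fork, had lower means in tuft cells. Under ribosomal protein centring Mcm2 and Mcm7 were higher by 0.52, below the median of 0.82 over all listed genes. Mcm5 was at 1.96, 2.29, 2.85, 2.19 and 0.76 in non-tuft libraries and at 0.52, 0, 0, 0 and 0 in tuft libraries. The groups did not overlap (difference -1.91, SE 0.43, limma adjusted p = 0.0104), and the 3.75-fold change was under the fold of 4. Mcm3 was at 3.31, 2.78, 0.27, 1.82 and 3.17 in non-tuft libraries and above the floor only in tuft library 4, at 1.31. Its difference of -2.01 (SE 0.58, limma adjusted p = 0.0400) did not hold in 8 of 10 fits without a library, all but those without non-tuft library 3 or tuft library 4, where the adjusted p reached 0.0943, nor without both libraries numbered 5, where it was 0.170.

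The remaining helicase subunits overlapped between the groups. Mcm4 differed by -1.29 and Mcm6 by -1.16, neither past the test (limma adjusted p = 0.198 and 0.226). Mcm2 was at 0.34 to 3.38 in non-tuft and 0.71 to 2.11 in tuft libraries, with a difference of -0.28 (95% interval -1.55 to 0.99). Mcm7, whose exons overlap Ap4m1, Cops6 and a pair of microRNA genes, also differed by -0.28 (95% interval -1.53 to 0.98). Every non-tuft library held all 6 subunits above the floor, and each tuft library held 3 to 5. Tuft library 4 had the highest mean over the 6 subunits among tuft cells, 1.82 against 0.63 to 1.06, and it also had the highest Ccnd1 and the highest acinar marker mean of the tuft cells, whose part in this was not tested.

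Of 11 genes of origin recognition and helicase loading, none passed in limma, and 2 were lower and none higher at an unadjusted p under 0.05. Gins1, a subunit of the active helicase, was at 3.86, 3.36, 2.87, 3.97 and 2.27 in non-tuft and 1.39, 0, 2.09, 2.98 and 0 in tuft libraries (difference -1.97, limma adjusted p = 0.0535). Cdc45, its partner at the fork, was at 0.59 to 3.38 in non-tuft cells and above the floor only in tuft library 5, at 1.31 (limma adjusted p = 0.0568, and 0.0160 without both libraries numbered 5). An exon of Cdc45 overlaps an exon of Ufd1l. Cdc6, which loads the helicase, was low and variable, with a difference of 0.35 (95% interval -0.97 to 1.67), and Orc2 of the origin recognition complex had the highest difference of this role, 0.51.

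None of the 4 enzymes of DNA synthesis passed in limma, and 1 was lower and none higher at an unadjusted p under 0.05. Pcna, the sliding clamp, was at 1.63 to 3.30 in non-tuft and 1.64 to 2.76 in tuft libraries (difference -0.26, 95% interval -1.23 to 0.71). Tyms, which makes thymidylate, differed by -0.71 (95% interval -1.82 to 0.41) and Rrm1, the large subunit of ribonucleotide reductase, by -0.18 (95% interval -1.36 to 0.99). Rrm2, the small subunit, whose level follows DNA synthesis, was at 2.59, 1.69, 0.06, 1.46 and 2.34 in non-tuft libraries and above the floor only in tuft library 3, at 0.68 (limma adjusted p = 0.0654). Across all 21 genes of replication, 2 were lower and none higher in limma's test, with 6 lower and none higher at an unadjusted p under 0.05, and 17 had lower means. Under ribosomal protein centring none of the 21 passed, against 2.41% lower and 18.4% higher of all listed genes. Of these 17, 7 then had higher means (Mcm2, Mcm7, Tyms, Pcna, Rrm1, Orc4 and Orc5), as did 9633 of the 12160 listed genes. The median difference under that scaling was -0.024 over the 17 and 0.82 over all listed genes.

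Of 12 mitotic kinases, checkpoint genes and division markers, Cdc20, Mki67, Plk4 and Aurkb fell, Bub3 rose and 7 did not pass. The median difference was -1.36, and -0.57 under ribosomal protein centring. Among the genes of this role with a mean level of at least 2 over all 10 libraries the median was 1.50. That filter left out Cdc20, Mki67, Plk4 and Aurkb, which are low in tuft cells. Cdc20, which activates the anaphase-promoting complex, was at 4.37, 2.86, 4.46, 4.33 and 3.59 in non-tuft libraries and, in tuft cells, above the floor only in library 5, at 0.14. Its difference was -3.90 (SE 0.40, limma adjusted p = 5.45e-05), 14.9-fold, without overlap, and an exon overlaps Elovl1. Mki67, the gene of the division marker Ki-67, was at 3.06, 3.49, 4.54, 1.77 and 0.96 in non-tuft and at 0, 0, 0.26, 0.59 and 0 in tuft libraries. The groups did not overlap, and non-tuft library 5 was nearest to the tuft cells (difference -2.59, SE 0.60, limma adjusted p = 0.0122, 6.04-fold).

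Plk4, the kinase of centriole duplication, was at 2.51, 4.02, 2.27, 2.15 and 2.90 in non-tuft libraries and above the floor only in tuft library 3, at 1.87. It fell by 2.40 on the log2 scale (SE 0.51, limma adjusted p = 0.00737), and without both libraries numbered 5 the adjusted p was 0.0520. Aurkb, a kinase of chromosome segregation, was listed at 0 in all tuft libraries and at 3.03, 0.17, 2.92, 1.18 and 4.32 in non-tuft libraries, with non-tuft library 2 at its floor (limma adjusted p = 0.0360). Aurkb lost its call in 8 of 10 fits without a library, all but those without non-tuft library 2 or 4, with an adjusted p of up to 0.0850, and had 0.130 without both libraries numbered 5.

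Several classical division genes did not pass, with wide spread among non-tuft libraries. Top2a, which untangles replicated DNA, was at 4.42, 4.24, 1.69, 0 and 2.25 in non-tuft and 1.10, 0, 0, 0.93 and 0 in tuft libraries (difference -2.11, limma adjusted p = 0.0907). Plk1, a central mitotic kinase, reached 4.61 in non-tuft library 1, with non-tuft libraries 2 and 4 at the floor (limma adjusted p = 0.282). Bub1b of the spindle checkpoint was listed at 0 in all tuft libraries and above the floor in 3 non-tuft libraries (limma adjusted p = 0.143). Aurka, the spindle pole kinase, differed by -1.24 (95% interval -2.70 to 0.23). Bub1 was not listed.

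Bub3 went the other way. This checkpoint protein, which also acts at kinetochores and is known outside mitosis for a part in splicing, was at 4.43, 4.93, 4.01, 2.08 and 5.22 in non-tuft and at 6.84, 6.62, 7.28, 6.66 and 7.86 in tuft libraries. Every tuft library lay above every non-tuft library. The difference was 2.92 (SE 0.57, limma adjusted p = 0.00458), 7.56-fold, and all 10 fits without a library kept it past the test. Bub3 was the most abundant of the 12 genes of its role in every tuft library.

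Of 16 centromere genes, 1 was lower and none was higher in limma, with 2 lower and none higher at an unadjusted p under 0.05. Cenpm, a subunit of the constitutive centromere complex, was at 1.95, 4.68, 2.46, 4.60 and 3.39 in non-tuft libraries and listed at 0 in all tuft libraries (limma adjusted p = 0.00114). Cenpa, the histone variant that marks centromeres, was at 2.95, 2.95, 4.65, 5.52 and 5.14 in non-tuft and 2.15, 0, 2.50, 2.01 and 3.71 in tuft libraries (difference -2.17, limma adjusted p = 0.0673). Cenpq had the highest difference of this role, 1.59, and was at 3.43 to 4.47 in tuft and 0 to 4.94 in non-tuft libraries (limma adjusted p = 0.238).

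**Figure D3:**
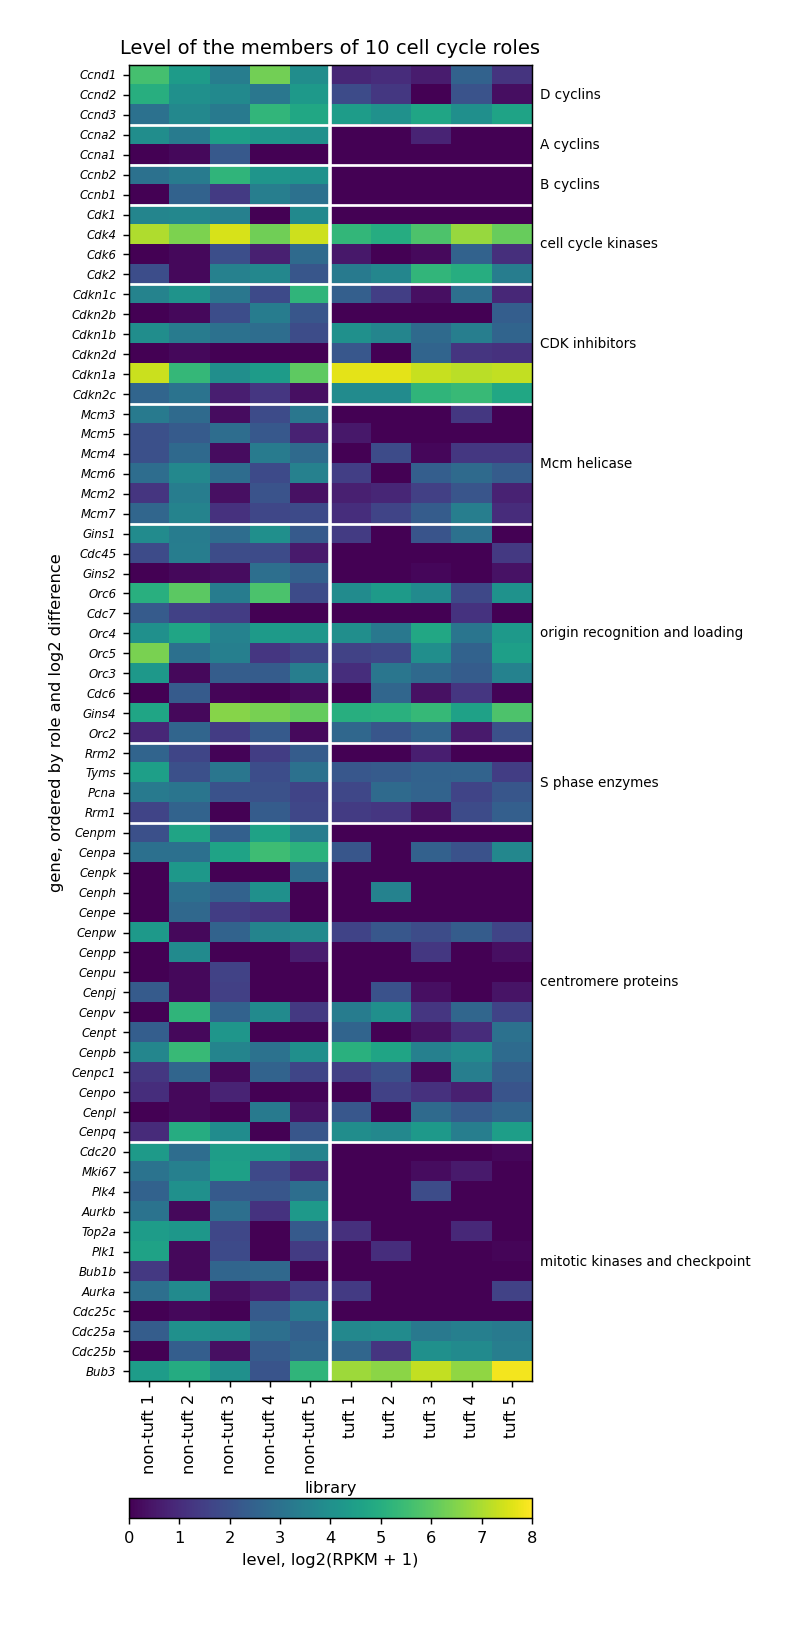
Level (log2(RPKM + 1), colour from 0 to 8) of the 66 members of the 10 core roles in each library, non-tuft libraries left and tuft libraries right of the white line, ordered by role and within a role by the difference. Dark cells on the right mark Ccna2, the B cyclins, Cdk1, Cenpm and Cdc20 in tuft libraries, and Cdk4, Cdkn1a and Bub3 stay bright in them.

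Of the 3 members whose tuft libraries all lay above the non-tuft libraries, Plk2 had not passed. This polo-like kinase that stress induces, described here after its values were seen, was at 5.51, 4.53, 5.55, 4.33 and 4.80 in non-tuft and 5.67, 5.96, 6.41, 6.18 and 6.34 in tuft libraries, and its difference of 1.17 did not pass over all genes (limma adjusted p = 0.0728).

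The members outside the core roles ranged from -4.21 for Cdkn3 to 1.41 for Cdc14b. None of the 12 transcription and other kinases passed in limma, with 1 lower and none higher at an unadjusted p under 0.05, and their differences ran from -1.32 for Cdk17 to 1.13 for Cdk19. Cdk5, a kinase known from neurons, differed by 1.03 (95% interval -0.45 to 2.51), with non-tuft library 2 at its floor. The 4 subunits of the anaphase-promoting complex that met the name rule differed by -0.77 for Cdc16 up to 0.05 for Cdc27. None of these 4 passed in limma, and 3 or 4 were above the floor in every library of both groups. Cdc20, the activator of the complex, fell. The 9 other Cdc names lay between -0.69 for Cdc73, of the Paf1 complex, and 1.41 for Cdc14b, a phosphatase, and none passed in limma (1 higher and none lower at an unadjusted p under 0.05).

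Of 108 members, 70 to 84 were above the floor in tuft and 80 to 100 in non-tuft libraries. For the 12 mitotic and checkpoint genes the numbers were 4 to 6 in tuft and 8 to 12 in non-tuft libraries, without overlap. The authors had dropped genes whose RPKM varied little between samples. A gene at the floor in a whole group was therefore listed only through its values in the other group, and these counts depend on that. Over all listed genes the ranges overlapped, with 9396 to 10622 genes in tuft and 8407 to 10718 in non-tuft libraries. Non-tuft library 2, with the fewest genes above the floor of all, had 8 of the 12 mitotic genes above it. The part of gene detection in these counts was not tested.

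**Figure D4:**
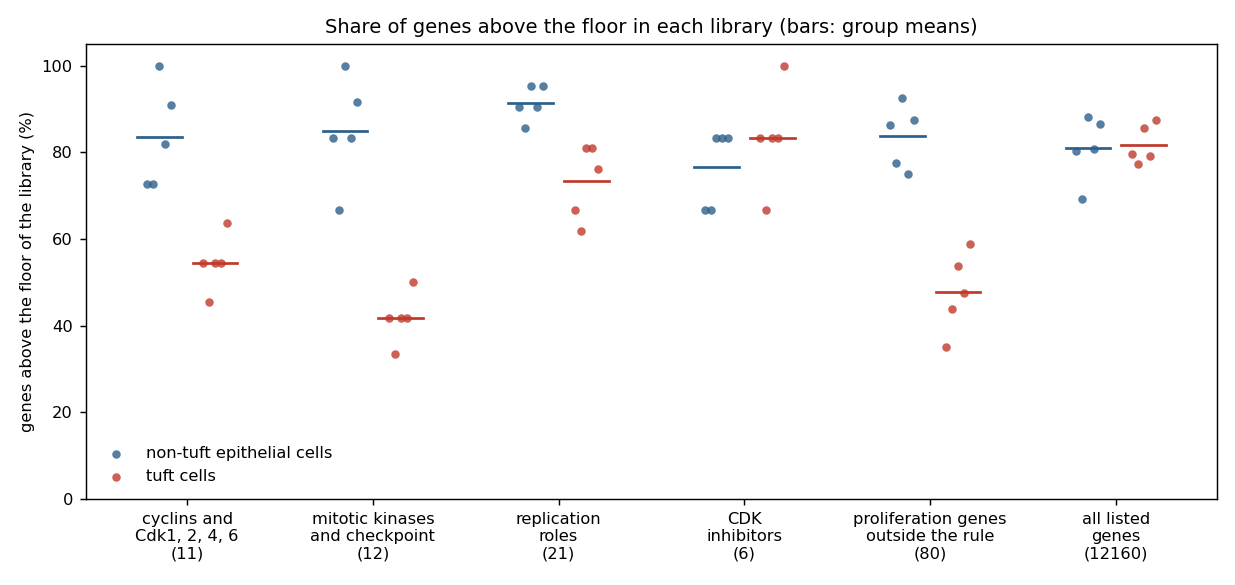
Share of genes above the floor (%) in each non-tuft (blue) and tuft (red) library for 5 groups of genes and for all listed genes, with the number of genes below each name and bars at the group means. Tuft libraries lie below non-tuft libraries for cyclins and kinases, mitotic genes, replication roles and the proliferation genes outside the name rule, and among them for the CDK inhibitors and all listed genes.

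Of 106 further genes of replication and mitosis, 80 were listed. They are from a list made by hand with earlier results of these data known, so their counts are a description and not independent support. In limma's test 22 were lower, none was higher and 58 did not pass, against 5.55% lower and 6.19% higher of all listed genes, and 36 were lower and none higher at an unadjusted p under 0.05. The median difference of the 80 was -1.17. Under ribosomal protein centring 8 were lower and 2 higher, against 2.41% and 18.4% of all listed genes. Their median was then -0.37, against 0.82 over all listed genes. Examples chosen after their values were seen were Spc24, a kinetochore gene, at 4.08 to 4.53 in non-tuft and 0 to 0.49 in tuft libraries, and Gmnn, the inhibitor of repeated origin licensing, at 3.18 to 4.45 and 0 to 1.67. Cks1b, a small partner of cyclin-dependent kinases, was at 3.77 to 6.24 in non-tuft and 1.05 to 2.57 in tuft libraries. None of these 3 overlapped between groups.

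A second list, also made with earlier results known, held 64 genes of cycle exit and control of the first gap phase, of which 58 were listed. In limma's test 1 was lower, Tob1, and 5 were higher, Lin52, Ccnj, Rb1, Gadd45a and Klf4, against 5.55% and 6.19% of all listed genes. As shares of the 58 these were 1.72% lower and 8.62% higher. Means were lower in tuft cells for 33 genes and higher for 25. The median difference was -0.18, and 0.62 under ribosomal protein centring, where that of all listed genes was 0.82. Rb1 and Gadd45a are examples picked from the higher genes. Rb1, the retinoblastoma protein that restrains E2F, was at 3.62 to 4.45 in tuft and 0.24 to 2.64 in non-tuft libraries, without overlap (difference 2.16, SE 0.48, limma adjusted p = 0.00972). Gadd45a, a growth arrest gene that DNA damage induces, was at 4.66 to 6.08 in tuft and 0 to 4.28 in non-tuft libraries (limma adjusted p = 0.0287).

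Without both libraries numbered 5, 12 members passed, 10 lower and 2 higher, in place of 14 and 3. Members that no longer passed were Ccnb1 (limma adjusted p = 0.147), Cdk1, Cdkn1a, Mcm3, Plk4 and Aurkb, and Cdc45 passed in addition. The median difference of the cyclins and kinases was then -1.82 and that of the inhibitors 0.82. The 13 members that passed in every fit without a single library were Ccnd1, Ccnd2, Ccna2, Ccnb2, Cdk1, Cdkn3, Mcm5, Cenpm, Cdc20, Mki67, Plk4, Cdkn2c and Bub3.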

How the data were processed

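Per the labels and the study's methods, the authors sequenced 50 bp single-end reads, checked them with FastQC, aligned them to the mm9 genome by HISAT2 and obtained RPKM by StringTie and Ballgown. Genes whose RPKM varied little between samples (variance below 1) had been dropped by the authors, who then deposited log2(RPKM + 1) after quantile normalization of these log2 values. The deposited table also holds the authors' fold ratio, p-value and false discovery rate, which were not used here. Depth is unknown.

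The deposited log2 values of all 12160 genes were fitted with lmFit and eBayes of limma 3.58.1 (R 4.3.3), without covariates, with Benjamini-Hochberg adjustment over all genes. A member was called when its adjusted p was under 0.05 and its fold above 4. Libraries were grouped by their titles, and p-values measure the spread between libraries. Values at a library's floor were tied at 0 when overlap was computed (Python 3.11.15). The fit was tested on simulated data.

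The members, roles and lists were chosen with earlier results of these data known. Named are all called members, the cyclins, Cdk1, Cdk2, Cdk4, Cdk6, inhibitors and Cdkn3, Mcm2 to Mcm7, common division genes, and in each role of 4 or more members those with the highest and lowest difference (52 listed genes). Positions are from the NCBIM37 annotation (mm9), where exons of 30 members overlap another gene. Alternatives were other constants, a filter on low values, ribosomal protein centring, other variance settings, a floor of 0, other fold rules, a replicate block and leaving out libraries.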

Additional observations from a re-analysis of the deposited data

Results flagged for a closer look

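Among 95 groups of 5 libraries with any spread over the named members, 13 held a library whose gap to the nearest other was above Dixon's 95% critical value, where chance alone flags about 1 in 20 groups. In 8 of them the other 4 libraries were at the floor, so that any value above it is flagged. These were Ccna1 in non-tuft library 3 at a level of 2.23, Cdkn2b in tuft library 5 at 2.39, Mcm3 in tuft library 4 at 1.31, Mcm5 in tuft library 1 at 0.52, Cdc45 in tuft library 5 at 1.31, Rrm2 in tuft library 3 at 0.68, Cdc20 in tuft library 5 at 0.14 and Plk4 in tuft library 3 at 1.87. In the other 5 a library stood apart from others that were not all at the floor. Ccna2 was at 0.80 in tuft library 3 and Plk1 at 1.06 in tuft library 2, each above the other tuft libraries. Cdk1 was at 0 in non-tuft library 4, below the others, and Cdk5 at 0.17, the floor, in non-tuft library 2. Cdc6 was at 2.31 in non-tuft library 2, above the others.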

How the results depend on the processing

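The count of members called, 16, was 12 to 15 when a library was left out, and that at an adjusted p under 0.05, 17, was 13 to 18. All listed genes called, 1010, were 841 to 1010. The medians were then -2.57 to -1.72 for cyclins and cell cycle kinases and 0.66 to 0.97 for CDK inhibitors. With 10 in place of 1 added before the logarithm, 278 genes and 1 member (Bub3) were called, and the medians were -0.89 and 0.20. With 0.1 added the median of the cyclins and kinases was -4.21. The median of the mitotic genes was -3.02 with 0.1 and -0.40 with 10 added. Limma's treat against a fold of 2 called 420 genes and 7 members. Among genes with a mean level of at least 2, 7 members were called and 9 had an adjusted p under 0.05, since members of low level were not tested. Ribosomal protein centring gave medians of -1.26 and 1.64. Apart from the stated construction, the cause was not tested. Low levels and unknown depth limit all genes near the floor.

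Of the named members, those that changed direction had not passed. Under ribosomal protein centring the median of all listed genes was 0.82. The differences were then Ccna1 0.32, Cdk6 0.55, Cdk5rap3 0.45, Mcm2 0.52, Mcm7 0.52, Tyms 0.093, Pcna 0.54, Rrm1 0.61, Cdc16 0.032 and Cdc73 0.11. Without both libraries numbered 5, an alternative chosen after seeing the data, they were Cdk6 0.11 and Cdc27 -0.61. Rrm1 was at 0.034 with 0.1 added and Cdc27 at -0.091 with 10 added. With a library left out, differences ran from -0.66 to 0.17 for Cdk6, -0.57 to 0.19 for Mcm2, -0.66 to 0.077 for Mcm7, -0.091 to 0.80 for Cdc6, -0.59 to 0.091 for Rrm1 and -0.52 to 0.40 for Cdc27. Members that passed only without a certain library, with an adjusted p of 0.0104 to 0.0435, were Cdkn1c and Top2a (non-tuft 4), Cdkn2d (tuft 2), Mcm4 and Rrm2 (non-tuft 3), Gins1 (non-tuft 5 or tuft 4), Cdc45 (either library numbered 5) and Cenpa (tuft 5).

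Libraries with the same number correlated in their deviations from the group means at r = 0.06 to 0.24 across genes, against -0.17 to 0.14 for other pairs, and 3 of 5 tuft libraries correlated best with their own number. Not every pair was above 0.1, so the numbers were not taken as pairs. This cut-off was a choice and cannot show that pairing is absent, since all same-number correlations were positive. With the replicate number as a block, 1009 genes and 16 members were called and 19 members had an adjusted p under 0.05, where Mcm3 no longer passed (0.0604) and Cdk2, Gins1 and Cenpa did.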
